A study of Mus musculus with 9 samples.

Results

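The genes that make, clear and sense side-chain oxysterols were examined in the corona radiata of the mouse, the layer of granulosa-derived cells closest to the oocyte. The set holds 7 genes, taken by symbol from the 54838 genes of the deposited matrix: Ch25h, Cyp27a1, Cyp46a1, Cyp7b1, Hsd3b7, Sult2b1 and Gpr183. RNA was sequenced from 9 libraries of 3 genotypes, with 3 libraries each. The first group was an LXR double knockout carrying the transgene TG-AMH-LXRb (transgenic here), the second the LXR double knockout alone (LXR DKO) and the third wild type (WT). All were adult mice treated with PMSG and hCG, hormones that stimulate follicle growth and ovulation, so the knockout is shared by the transgenic and LXR DKO groups and the hormones by all. The labels add an unexplained term, J4, to the hormone treatment, and do not say what promoter and coding part the transgene has or which stretches of the receptor genes are deleted. Since no label ties a library to its own animal, the p-values speak of the spread among the sequenced libraries, which may be technical.

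Oxysterols are cholesterol molecules with an added hydroxyl group. Ch25h, Cyp27a1 and Cyp46a1 add that group to the side chain, Cyp7b1 and Hsd3b7 carry the products towards bile acids, and Sult2b1 attaches a sulfate to cholesterol and oxysterols. The products bind liver X receptors (LXR alpha and LXR beta, encoded by Nr1h3 and Nr1h2), and the dihydroxylated products bind Gpr183 (also called EBI2), a receptor that guides B cells and other immune cells. LXR proteins bind DNA together with a retinoid X receptor, at repeats of the letters AGGTCA.

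Promoter sequences are shown for the gene with the lowest measurable level, Sult2b1, whose LXR DKO and WT libraries did not overlap, and for Ch25h, whose promoter was the one with a match to a searched motif. The sequences are RefSeq promoter windows on GRCm38.p6, 250 bases before to 50 bases after a gene start, written 5′ to 3′ on the gene's strand. Capitals mark TGACGTCA, the site of the cyclic AMP response element binding protein. Sult2b1 has a pair of annotated starts, at chr7:45759563-45759862 and chr7:45742429-45742728, both on the minus strand, and Ch25h has 1 window at chr19:34475099-34475398 on the minus strand.
Sult2b1, upstream start: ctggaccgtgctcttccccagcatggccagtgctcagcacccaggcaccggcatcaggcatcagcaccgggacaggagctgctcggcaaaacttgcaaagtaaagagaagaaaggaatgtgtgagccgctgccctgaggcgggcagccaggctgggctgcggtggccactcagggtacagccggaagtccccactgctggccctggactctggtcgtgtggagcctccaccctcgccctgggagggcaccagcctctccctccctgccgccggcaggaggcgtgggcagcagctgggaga
Sult2b1, downstream start: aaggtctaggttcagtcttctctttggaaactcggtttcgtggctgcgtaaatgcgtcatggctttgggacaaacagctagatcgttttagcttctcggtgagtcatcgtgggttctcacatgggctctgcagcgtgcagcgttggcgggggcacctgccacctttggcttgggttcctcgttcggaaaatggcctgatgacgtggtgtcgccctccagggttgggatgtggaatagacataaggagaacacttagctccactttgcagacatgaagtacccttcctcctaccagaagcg
Ch25h: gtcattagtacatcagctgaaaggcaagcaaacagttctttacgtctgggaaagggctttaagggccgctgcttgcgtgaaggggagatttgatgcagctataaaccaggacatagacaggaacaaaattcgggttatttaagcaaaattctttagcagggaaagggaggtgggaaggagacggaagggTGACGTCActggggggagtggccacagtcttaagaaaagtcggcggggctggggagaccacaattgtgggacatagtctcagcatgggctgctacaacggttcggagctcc
On both strands, AGGTCA was in none of the 7 windows that RefSeq gives for 6 of the 7 genes, while 16.3% of 32851 mouse promoter windows of the same length hold it. A spaced repeat, AGGTCA followed by NNNN (any 4 bases) and a second AGGTCA, which overlaps that motif by construction, was also in none of the 7 and is in 0.0152% of all windows. TGACGTCA was found once, in Ch25h, and is in 1.79% of all windows. These matches describe letters in 300 bases and no binding was measured.

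Reads in genes, worked back from the deposited values, numbered 31780906 to 46972414 per library. Nr1h2 measured 4.83, 5.28 and 6.70 RPKM (reads per gene, scaled to gene length and library size) in the transgenic libraries, 3.57, 2.85 and 3.03 RPKM in LXR DKO libraries and 45.7, 39.7 and 39.7 RPKM in WT libraries. Nr1h3 measured 0.395, 0.819 and 0.539 RPKM in transgenic libraries, 1.08, 0.713 and 0.933 RPKM in LXR DKO libraries and 3.50, 5.72 and 4.95 RPKM in WT libraries. Both receptor genes were thus lower in every library of the other two genotypes than in every WT library. The summed level of 14 granulosa and cumulus markers was 508 to 652 RPKM in transgenic libraries. It was 477 to 706 RPKM in LXR DKO and 1027 to 1205 RPKM in WT libraries. Against WT, 4 of 11 tested markers fell in LXR DKO libraries (limma, adjusted p under 0.05): Hsd17b1, Ptx3, Inhba and Tnfaip6. In transgenic libraries 6 of 11 fell, these and Has2 and Serpine2. Of all 16422 genes tested, 1169 fell in LXR DKO and 1103 in transgenic libraries against WT. Tnfaip6 alone was 323.6 to 449.9 RPKM in WT, 110.6 to 158.5 in transgenic and 89.7 to 113.7 in LXR DKO libraries. Inha and Foxl2 were lower in every transgenic than in every WT library but did not pass. Fshr, Amhr2 and Nr5a2 overlapped between transgenic and WT libraries, so the sum is not a measure of granulosa cells alone. Other cells were present: the 14 oocyte markers summed to 555 RPKM in LXR DKO 1, 1132 RPKM in WT 1 and no more than 62.0 RPKM elsewhere, the sum of 6 erythroid markers was 9881 RPKM in WT 3 and at most 970 elsewhere, and markers of oviduct epithelium, macrophages and lymphocytes varied as given with each gene.

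The oxysterol genes had low levels, and none of those tested passed the threshold between genotypes. Averaged over the 9 libraries, the levels ran from Gpr183 (1.29 RPKM) through Ch25h (0.902), Cyp27a1 (0.731), Cyp46a1 (0.338), Cyp7b1 (0.241) and Sult2b1 (0.111) to Hsd3b7 (0). Among the 37863 genes above 0 RPKM somewhere, 60.2% had a lower mean than Gpr183, 57.2% a lower mean than Ch25h, 55.3% than Cyp27a1, 48.5% than Cyp46a1, 45.2% than Cyp7b1 and 37.2% than Sult2b1. Each of the first 5 had libraries that overlapped those of the next gene, so the order of these means is a description. Only Gpr183 and Ch25h reached the filter for testing, which was 1 RPKM or more in 3 or more libraries, and 5 genes lay below it. Gpr183 reached 1 RPKM in every LXR DKO and WT library and in no transgenic library.

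Among the 2 genes tested with limma on log2(RPKM + 1), 0 passed an adjusted p of 0.05 in transgenic against LXR DKO libraries, where 0.116% of 16422 genes passed. In transgenic against WT libraries 0 of 2 passed, against 11.9% of all genes tested, and in LXR DKO against WT libraries 0 of 2, against 10.6%. At an unadjusted p under 0.05 the count was 1 of 2 in transgenic against WT libraries, where 30.4% of all genes had such a p, and 0 of 2 in the other comparisons, where 8.1% had one in transgenic against LXR DKO and 26.5% in LXR DKO against WT. A looser filter, 0.1 RPKM or more in 3 or more libraries, let in 6 of the 7 genes among 25027. Of these, Sult2b1 reached 0.1 RPKM in every WT library and in transgenic 2, and in no LXR DKO library. With a pseudocount of 0.1 in place of 1, limma again called 0 of 6 in each comparison, where 0.112% of all genes passed in transgenic against LXR DKO, 6.4% in transgenic against WT and 5.95% in LXR DKO against WT. At an unadjusted p under 0.05 that fit counted 1 of 6 in transgenic against LXR DKO (7.53% of all genes), 2 of 6 in transgenic against WT (24.5%) and 2 of 6 in LXR DKO against WT (20.8%).

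**Figure D1:**
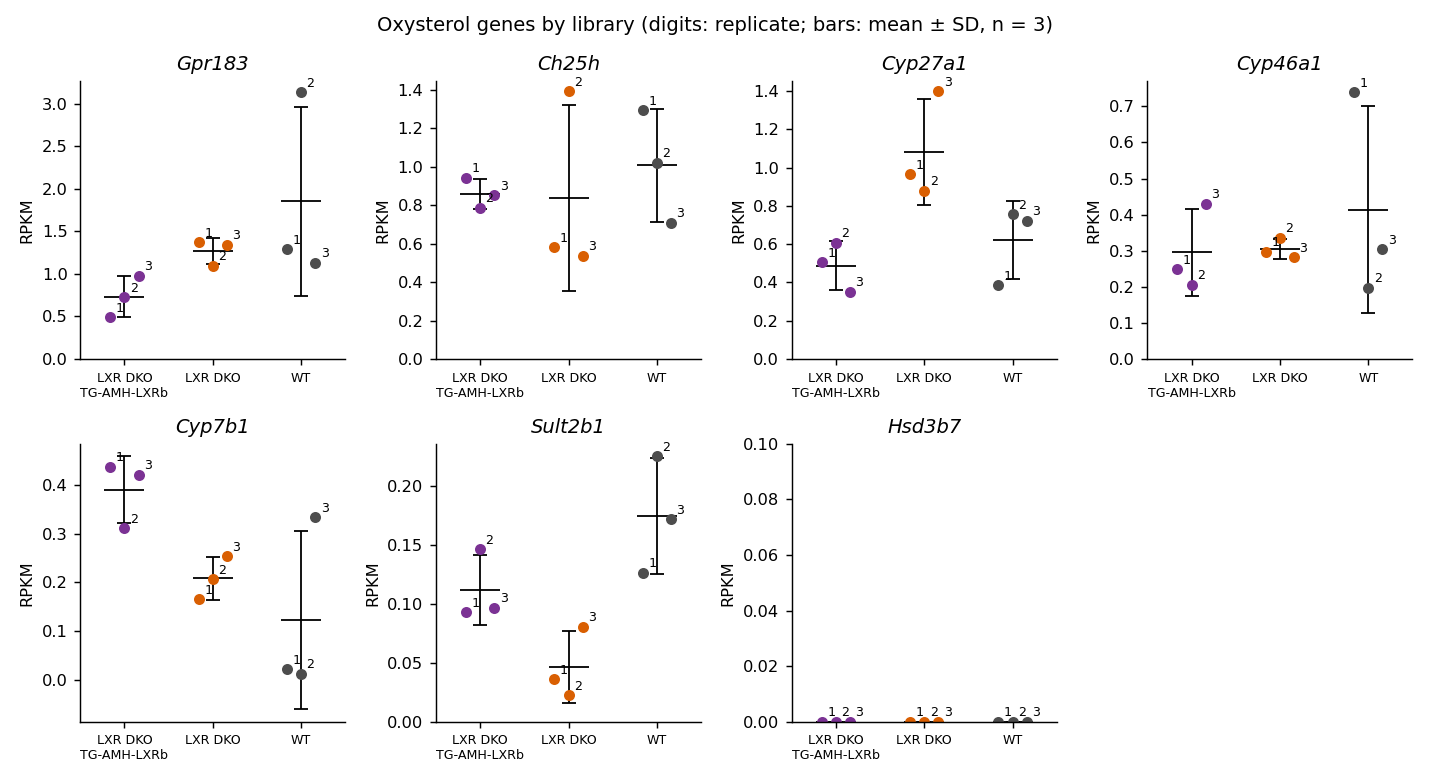
RPKM of each oxysterol gene (y axis, one scale per gene) in each library, by genotype (x axis), with points for libraries, digits for replicate numbers and bars for the mean ± SD of 3 libraries. The 3 transgenic points lie below all LXR DKO and WT points for Gpr183, the 3 LXR DKO points lie above all others for Cyp27a1 and below all others for Sult2b1, and Hsd3b7 is listed at 0 throughout.

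Groups of 3 libraries did not overlap for 4 of the 6 genes with a value in transgenic against LXR DKO libraries, while 17.6% of the 25027 genes under the looser filter showed no overlap (10.7% higher and 6.94% lower). Cyp7b1 and Sult2b1 were higher in every transgenic library, and Gpr183 and Cyp27a1 lower. In transgenic against WT libraries 1 of 6 did not overlap (Gpr183, lower), against 29.5% of all genes (14.1% higher and 15.4% lower). In LXR DKO against WT libraries 2 of 6 did not overlap (Cyp27a1 higher, Sult2b1 lower), against 23.7% (10.7% higher and 13% lower). Sult2b1 passed the looser filter through its WT libraries and transgenic 2 alone, so the filter itself leaned towards a lower LXR DKO level. With 3 libraries against 3 an exact permutation test cannot go below p = 0.1. None of the 18 exact two-sided permutation tests of single genes reached less than 0.257 after Benjamini-Hochberg adjustment over the 18. The comparisons share libraries, so the counts are not independent of each other.

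Among the enzymes that form oxysterols, Cyp27a1 showed the clearest order of the genotypes. Cyp27a1 encodes the mitochondrial sterol 27-hydroxylase (ENSMUSG00000026170, mm10 chr1:74713574-74737892, plus strand). It measured 0.507, 0.607 and 0.353 RPKM in transgenic libraries, 0.966, 0.880 and 1.40 RPKM in LXR DKO libraries and 0.387, 0.758 and 0.724 RPKM in WT libraries. Every LXR DKO library lay above every other library, while transgenic and WT libraries overlapped. The reads behind these values were 51, 41 and 26 in transgenic, 88, 64 and 105 in LXR DKO and 37, 61 and 74 in WT libraries. Means were 0.489 ± 0.128, 1.08 ± 0.279 and 0.623 ± 0.205 RPKM in transgenic, LXR DKO and WT libraries (SD, n = 3 each).

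The transgenic mean of Cyp27a1 was 0.452 times the LXR DKO mean, a log2 difference of -1.0 ± 0.31 (SE) on the log2(RPKM + 0.1) scale. That did not pass the adjustment (limma, unadjusted p = 0.0108, adjusted p = 0.467). The LXR DKO mean was 1.74 times the WT mean, a log2 difference of 0.73 ± 0.31 (limma, unadjusted p = 0.0451, adjusted p = 0.227). Each of these had p = 0.1 in the exact two-sided permutation test, the smallest it can give. Between transgenic and WT libraries the difference was -0.28 ± 0.31 (limma, adjusted p = 0.640, 95% interval -0.98 to 0.43). Leaving out single libraries moved the difference of LXR DKO from WT between 0.47, without WT 1, and 0.88, without WT 2.

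Macrophages also express Cyp27a1. The summed level of 12 macrophage markers, all present in the matrix and none at 0 in all libraries, was 412 to 571 RPKM in transgenic libraries, 690 to 1258 RPKM in LXR DKO and 584 to 1382 RPKM in WT. In transgenic against LXR DKO libraries 1 of 12 fell (Cd68), in transgenic against WT libraries 6 of 12 fell (Cd68, Tyrobp, Ctss and the complement genes C1qa, C1qb and C1qc), and in LXR DKO against WT libraries 0 of 12 passed the limma threshold. Over all genes tested, 0.116%, 11.9% and 10.6% passed in these comparisons. Over the 9 libraries, the Pearson correlation of Cyp27a1 with the macrophage sum was r = 0.50, with both as log2(RPKM + 0.1), as in the marker correlations that follow. Its correlation was 0.59 with the lymphocyte sum, and -0.68 with the sum of 4 squamous epithelium markers, which was at most 0.468 RPKM in any library. WT 3 had the highest macrophage sum, of which Lyz2 alone was 878 RPKM, and a Cyp27a1 level of 0.724 RPKM, below all LXR DKO libraries. The single markers differed in where they were highest. Csf1r, Adgre1, Fcgr1, Mrc1 and Cx3cr1 were highest in LXR DKO 3, the library with the most Cyp27a1. Cd68, C1qa, C1qb, C1qc, Ctss and Tyrobp were highest in WT 3, and Lyz2 in LXR DKO 2. The part of macrophages in the Cyp27a1 values was not tested, and in bulk RNA fewer cells of a type and less RNA per cell cannot be told apart.

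Ch25h encodes cholesterol 25-hydroxylase, an endoplasmic reticulum enzyme whose gene has 1 exon and is strongly induced in stimulated macrophages (ENSMUSG00000050370, chr19:34473778-34475164, minus strand). It measured 0.943, 0.786 and 0.851 RPKM in transgenic libraries, 0.583, 1.39 and 0.537 RPKM in LXR DKO libraries and 1.30, 1.02 and 0.709 RPKM in WT libraries. The highest and the lowest value both belonged to LXR DKO, and all groups overlapped. Means were 0.860 ± 0.0788 RPKM in transgenic, 0.838 ± 0.483 RPKM in LXR DKO and 1.01 ± 0.294 RPKM in WT libraries (SD, n = 3 each).

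On the log2(RPKM + 1) scale, Ch25h differed by 0.047 ± 0.19 between transgenic and LXR DKO libraries (limma, adjusted p = 0.975, 95% interval -0.39 to 0.49). Transgenic libraries differed from WT by -0.10 ± 0.19 (adjusted p = 0.758, interval -0.54 to 0.34) and LXR DKO from WT by -0.15 ± 0.19 (adjusted p = 0.681, interval -0.59 to 0.29) in the same limma fit. The sign against LXR DKO turned without LXR DKO 1 or LXR DKO 3, that of transgenic against WT turned without WT 1, and that of LXR DKO against WT turned when WT 1 and LXR DKO 1 were left out together. Over the 9 libraries, Ch25h did not follow the macrophage sum (r = 0.00013). Of the exon bases, 11.5% are shared with the antisense gene Gm26902. The tested genes whose pattern over the 9 libraries was most like that of Ch25h were Gm6451 (r = 0.98) and Rps15a-ps4 (r = 0.93), and reads of pseudogene copies can be miscounted.

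Cyp46a1 encodes the sterol 24-hydroxylase, best known from neurons (ENSMUSG00000021259, chr12:108334381-108362234, plus strand). It measured 0.250, 0.206 and 0.430 RPKM in transgenic libraries, 0.297, 0.336 and 0.282 RPKM in LXR DKO libraries and 0.739, 0.197 and 0.304 RPKM in WT libraries. WT 1 stood above the other 8 libraries, with 107 reads, and all groups overlapped. WT 1 was also the library with the highest oocyte marker sum, while LXR DKO 1, the second in that sum, had 0.297 RPKM. The log2 differences on the log2(RPKM + 0.1) scale were -0.076 ± 0.40 for transgenic against LXR DKO (adjusted p = 0.984), -0.28 ± 0.40 for transgenic against WT (adjusted p = 0.723) and -0.20 ± 0.40 for LXR DKO against WT (adjusted p = 0.840, all from limma). The 95% interval for transgenic against WT ran from -1.19 to 0.64. Without WT 1 the differences from WT turned, to 0.15 for transgenic and 0.22 for LXR DKO libraries. Without transgenic 2 the difference of transgenic from LXR DKO turned to 0.089. Within WT the reads were 107, 24 and 47, a spread beyond counting error.

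Among the enzymes that clear oxysterols, Cyp7b1 was the one highest in transgenic libraries. Cyp7b1 encodes the oxysterol 7 alpha-hydroxylase (ENSMUSG00000039519, chr3:18071950-18243338, minus strand). It measured 0.438, 0.312 and 0.422 RPKM in transgenic libraries, 0.165, 0.207 and 0.254 RPKM in LXR DKO libraries and 0.0210, 0.0125 and 0.334 RPKM in WT libraries. WT 1 and WT 2 rested on 2 reads and 1 read, while WT 3 had 34 reads and lay among the transgenic libraries. The transgenic libraries all lay above the LXR DKO ones, with 44, 21 and 31 reads against 15, 15 and 19.

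The mean of Cyp7b1 was 0.391 ± 0.0688 RPKM in transgenic, 0.209 ± 0.0446 RPKM in LXR DKO and 0.122 ± 0.183 RPKM in WT libraries (SD, n = 3 each). On the log2(RPKM + 0.1) scale the difference of transgenic from LXR DKO libraries was 0.67 ± 0.50 (limma, adjusted p = 0.796), with an exact two-sided permutation p of 0.1. The difference of transgenic from WT libraries was 1.43 ± 0.50 (limma, unadjusted p = 0.0181, adjusted p = 0.121), with an exact permutation p of 0.2. LXR DKO differed from WT by 0.76 ± 0.50 (limma, adjusted p = 0.439). These calls turned on WT 3: without it, in a fit added after the data were seen, transgenic libraries exceeded WT 1 and WT 2 by 2.06 (adjusted p = 0.00389) and LXR DKO exceeded them by 1.39 (adjusted p = 0.0308, both limma). In that fit 3878 of all 25027 genes passed in transgenic against WT and 2218 in LXR DKO against WT libraries.

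Cyp7b1 ranked the libraries much as the oviduct epithelium markers did. The summed level of 10 such markers, none at 0 in any library, was 1557, 2134 and 2020 RPKM in transgenic libraries, 381, 859 and 634 RPKM in LXR DKO libraries and 207, 243 and 1499 RPKM in WT libraries. WT 3 stood apart from the other WT libraries in this sum as it did in Cyp7b1. Over the 9 libraries of 3 genotypes, the correlation of Cyp7b1 with the oviduct sum was r = 0.93. It was 0.67 with the smooth muscle sum, -0.70 with the granulosa sum and -0.81 with the neutrophil sum. Of the oviduct epithelium markers 1 of 10 rose in transgenic against WT libraries (Cdh1), near the 11.9% of all genes tested that passed there. In the other comparisons 0 of 10 passed (limma). The part of oviduct cells in the Cyp7b1 values was not tested.

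**Figure D2:**
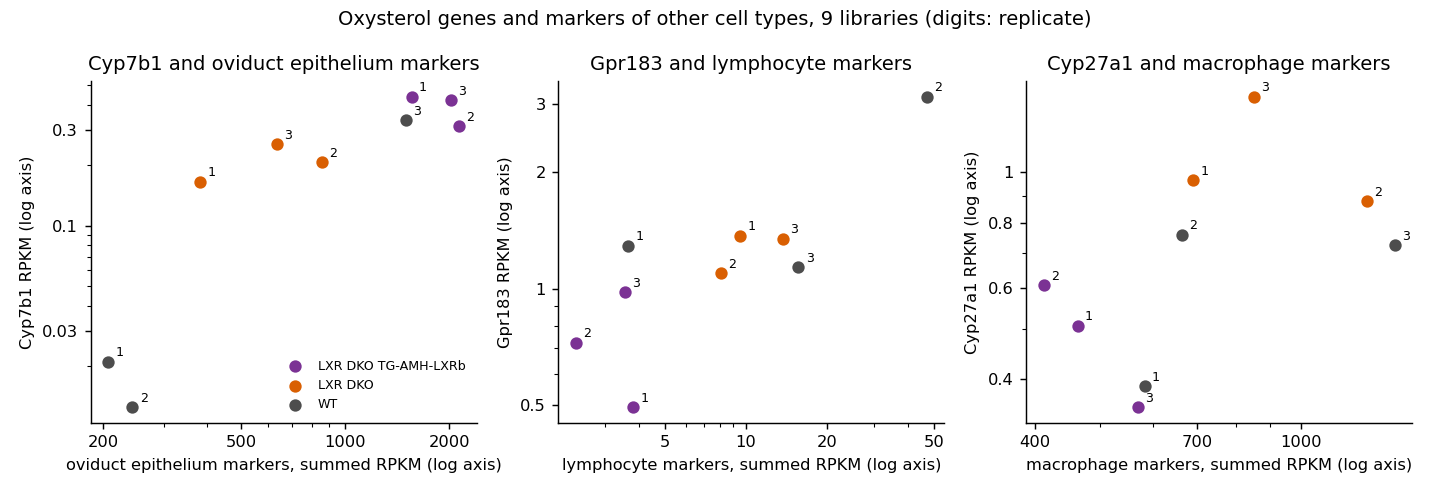
Each point is 1 of 9 libraries, colored by genotype with its replicate number, and both axes are logarithmic RPKM: Cyp7b1 against summed oviduct epithelium markers, Gpr183 against summed lymphocyte markers and Cyp27a1 against summed macrophage markers. WT 3 joins the transgenic libraries at the upper right for Cyp7b1, and WT 2 stands alone at the upper right for Gpr183. For Cyp27a1 the LXR DKO libraries lie above WT 3, the library with the highest macrophage marker sum.

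Sult2b1, whose promoters are printed above, encodes the sulfotransferase of cholesterol and hydroxysterols (ENSMUSG00000003271, chr7:45729983-45784669, minus strand). It measured 0.0929, 0.147 and 0.0970 RPKM in transgenic libraries, 0.0362, 0.0227 and 0.0807 RPKM in LXR DKO libraries and 0.127, 0.226 and 0.172 RPKM in WT libraries. Every LXR DKO library lay below every other library, and transgenic and WT libraries overlapped. The reads were 17, 18 and 13 in transgenic, 6, 3 and 11 in LXR DKO and 22, 33 and 32 in WT libraries, or 48, 20 and 87 in sum. For this gene 1 read was worth 0.00538 RPKM in WT 3 and 0.00814 RPKM in transgenic 2, the lowest and highest of the 9 libraries.

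Mean Sult2b1 was 0.112 ± 0.0299 RPKM in transgenic, 0.0465 ± 0.0304 RPKM in LXR DKO and 0.175 ± 0.0496 RPKM in WT libraries (SD, n = 3 each). The transgenic mean was 2.41 times the LXR DKO mean, a log2 difference of 0.54 ± 0.29 on the log2(RPKM + 0.1) scale (limma, adjusted p = 0.712), with an exact permutation p of 0.1. The LXR DKO mean was 0.266 times the WT mean, a log2 difference of -0.91 ± 0.29 (limma, unadjusted p = 0.0129, adjusted p = 0.113), also with an exact permutation p of 0.1. Transgenic libraries differed from WT by -0.37 ± 0.29 (limma, adjusted p = 0.490). The direction of each was the same with any single library left out, and the adjusted p of LXR DKO against WT ranged from 0.0718 to 0.283 over the alternatives that included the gene.

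Of the exon bases of Sult2b1, 8.13% are also exon of the antisense gene Gm31597. Gm31597 measured 0 RPKM in all transgenic libraries, 0.0463, 0 and 0 RPKM in LXR DKO libraries and 0.221, 0.157 and 0.743 RPKM in WT libraries, so each WT library lay above all others for Gm31597. How the authors counted strands is not given in the sources used here, and the share of Gm31597 reads in the Sult2b1 values was not tested. Sult2b1 lies 1.18 Mb from Nr1h2 on the same chromosome. Over the 9 libraries, the correlation of Sult2b1 with the granulosa marker sum was r = 0.67, a sum that was itself higher in every WT library. It was -0.60 with the sum of 6 endothelial markers, which was at most 5.66 RPKM in any library. The part of these cells in the Sult2b1 values was not tested.

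Hsd3b7 encodes the microsomal enzyme that oxidizes the 3 beta-hydroxyl group of 7 alpha-hydroxylated sterols (ENSMUSG00000042289, chr7:127800604-127803802, plus strand). It is listed at 0 in all 9 libraries. Of its 2769 exon bases in GENCODE M21, 62.0% lie in exons of Gm49388, a gene on the same strand that runs through from Setd1a and is itself listed at 0 in every library, and 62.4% in 9430064I24Rik on the opposite strand. Together these cover 99.2% of the exon bases. Of 196 protein-coding genes whose exons are at least 99% shared with other genes, 191 (97.4%) are listed at 0 in all 9 libraries, against 2411 of 15933 genes (15.1%) with under 1% shared. Among 40 such genes shared mostly with the opposite strand the count at 0 was 39 (97.5%). The listed 0 of Hsd3b7 is not read here as a level of expression, and no comparison was made.

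**Figure D3:**
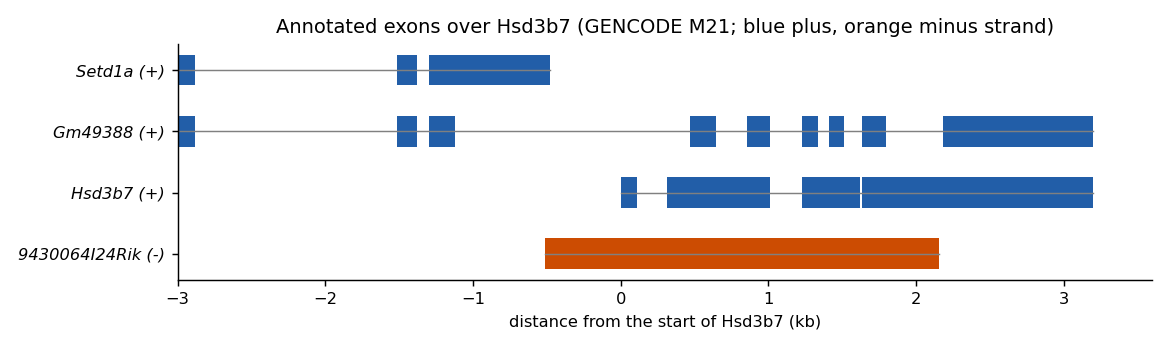
Annotated exons (boxes) of Hsd3b7 and the genes that overlap or adjoin it, by distance from its start in kb (x axis), with plus-strand genes in blue and minus-strand genes in orange. Setd1a and Gm49388 continue to the left of the map, and Gm49388 and 9430064I24Rik together cover 99.2% of the Hsd3b7 exon bases.

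Gpr183, the receptor for dihydroxylated oxysterols, was lowest in transgenic libraries (ENSMUSG00000051212, chr14:121952551-121965195, minus strand). It measured 0.493, 0.724 and 0.980 RPKM in transgenic libraries, 1.37, 1.10 and 1.35 RPKM in LXR DKO libraries and 1.29, 3.13 and 1.13 RPKM in WT libraries. Every transgenic library lay below every other library, WT 2 stood far above the rest, and LXR DKO and WT libraries overlapped. The reads were 66, 65 and 96 in transgenic, 166, 106 and 134 in LXR DKO and 164, 335 and 154 in WT libraries.

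Mean Gpr183 was 0.733 ± 0.243 RPKM in transgenic, 1.27 ± 0.151 RPKM in LXR DKO and 1.85 ± 1.11 RPKM in WT libraries (SD, n = 3 each). On the log2(RPKM + 1) scale transgenic libraries differed from LXR DKO by -0.40 ± 0.24 (limma, adjusted p = 0.738, 95% interval -0.95 to 0.15). They differed from WT by -0.66 ± 0.24 (limma, unadjusted p = 0.0236, adjusted p = 0.109, interval -1.21 to -0.11), and both comparisons had an exact permutation p of 0.1. LXR DKO differed from WT by -0.26 ± 0.24 (limma, adjusted p = 0.542), which was 0.037 without WT 2. The difference of transgenic from WT passed the threshold in the fit without WT 3 (-0.84, limma adjusted p = 0.0409), and was -0.36 in the fit without WT 2 (limma adjusted p = 0.197). Of all 16422 genes tested, 3555 passed without WT 3 and 810 without WT 2.

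WT 2 was also the library with the most B cell RNA. The summed level of 9 lymphocyte markers, all in the matrix, was 2.34 to 3.82 RPKM in transgenic libraries, 8.06 to 13.8 RPKM in LXR DKO libraries, and 3.65, 47.1 and 15.7 RPKM in WT 1, WT 2 and WT 3. In WT 2 the B cell receptor genes Cd79b and Cd79a measured 21.8 and 10.2 RPKM. The T cell gene Cd3e was at most 0.151 RPKM in any library. In transgenic against WT libraries 1 of 4 tested lymphocyte markers fell (Ms4a1, limma), where 11.9% of all genes tested passed, and 0 of 4 passed in the other comparisons. Over the 9 libraries the correlation of Gpr183 was r = 0.82 with the lymphocyte sum, 0.83 with the neutrophil sum and -0.74 with the oviduct epithelium sum. Their part in the Gpr183 values was not tested. The tested genes most like Gpr183 over the 9 libraries were Gm5867 and Hnrnpr (r = 0.95 for each).

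Over the 9 libraries, Gpr183 and Cyp7b1 ran opposite to each other (r = -0.78), Cyp27a1 and Cyp46a1 had r = -0.49, Cyp27a1 and Ch25h r = -0.50, and the other pairs lay between -0.40 and 0.40.

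**Figure D4:**
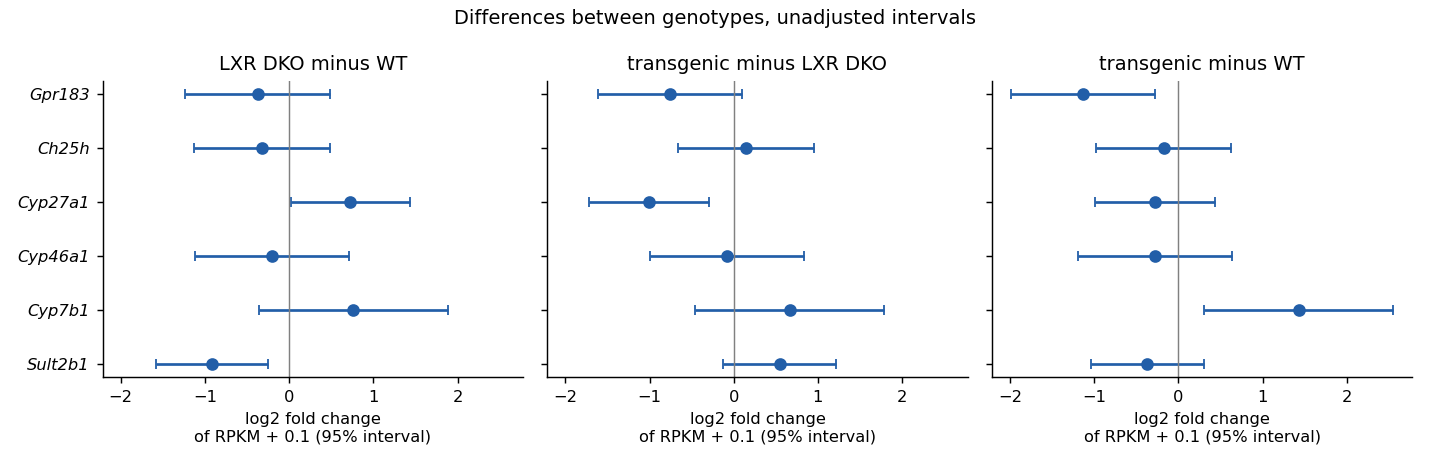
Log2 fold change of RPKM + 0.1 (x axis) with unadjusted 95% intervals from limma for the 6 oxysterol genes with a value (rows), in 3 panels for LXR DKO minus WT, for transgenic minus LXR DKO, and last for transgenic minus WT. Intervals that miss 0 are those of Cyp27a1 and Sult2b1 in LXR DKO minus WT, Cyp27a1 in transgenic minus LXR DKO, and Gpr183 and Cyp7b1 in transgenic minus WT, and none had an adjusted p under 0.05.

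Genes that work beside these enzymes were also examined. Of 62 listed genes for the bile acid route, P450 electron donors, other sterol enzymes, sulfation, oxysterol binding and sterol supply, 61 were in the matrix and 48 were tested. In transgenic against LXR DKO libraries 0 of 48 passed in either direction (limma), with a median log2 fold change of 0.015 against 0.013 over all genes tested. In transgenic against WT libraries 7 rose, 2 fell and 39 did not pass, so 18.8% of the listed genes passed against 11.9% of all genes tested, with a median of 0.14 against 0.015 over all genes. In LXR DKO against WT libraries 4 rose, 2 fell and 42 did not pass, so 12.5% passed, near the 10.6% of all genes tested, with a median of 0.073 against 0.017. Both comparisons with WT share the WT libraries, so their calls are not independent.

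Among the 16 tested genes for proteins that bind or sense oxysterols, 5 rose and 1 fell in transgenic against WT libraries, where 11.9% of all genes tested passed, with a median log2 fold change of 0.30. In LXR DKO against WT libraries 2 rose and 1 fell, where 10.6% of all genes tested passed, with a median of 0.22. Smo, the Hedgehog pathway transducer that binds sterols, averaged 29.4 ± 1.87 RPKM in transgenic, 24.5 ± 1.03 RPKM in LXR DKO and 14.3 ± 1.27 RPKM in WT libraries (SD, n = 3 each). It rose in transgenic libraries by 0.99 ± 0.09 (limma adjusted p = 0.000437) and in LXR DKO by 0.73 ± 0.09 (adjusted p = 0.00201), both against WT. Osbpl3, an oxysterol-binding protein related gene, averaged 2.62 ± 0.523 RPKM in transgenic, 2.47 ± 0.312 RPKM in LXR DKO and 7.92 ± 1.53 RPKM in WT libraries. Its log2 fold change against WT was -1.30 ± 0.16 in transgenic libraries (limma adjusted p = 0.0026) and -1.35 ± 0.16 in LXR DKO libraries (adjusted p = 0.00201), and these calls of Smo and Osbpl3 held under each alternative run.

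Osbpl5, Osbpl1a, Osbpl7 and Osbpl9, of the same family of lipid transfer proteins at membrane contacts, each rose in transgenic against WT libraries. Osbpl5 averaged 11.5 ± 1.68 RPKM in transgenic, 8.15 ± 0.565 RPKM in LXR DKO and 6.29 ± 0.799 RPKM in WT libraries, with a difference between transgenic and WT libraries of 0.77 ± 0.12 (limma adjusted p = 0.00764). Osbpl1a averaged 4.76 ± 0.332, 3.81 ± 0.10 and 2.60 ± 0.552 RPKM in transgenic, LXR DKO and WT libraries, with a difference of transgenic from WT of 0.69 ± 0.12 (adjusted p = 0.0112). Osbpl7 averaged 3.48 ± 0.401 RPKM in transgenic, 2.31 ± 0.200 RPKM in LXR DKO and 2.14 ± 0.283 RPKM in WT libraries, with a difference of transgenic from WT of 0.51 ± 0.11 (limma adjusted p = 0.0259). Osbpl9, at 23.9 ± 1.09 RPKM in transgenic, 24.5 ± 1.55 RPKM in LXR DKO and 18.9 ± 0.646 RPKM in WT libraries, rose in transgenic against WT libraries by 0.32 ± 0.08 (limma adjusted p = 0.03). It also rose in LXR DKO against WT libraries by 0.35 ± 0.08 (limma adjusted p = 0.0215). The calls of Osbpl5 and Osbpl1a held under each alternative run. That of Osbpl7 was lost without WT 1, WT 2 or any 1 transgenic library (limma adjusted p 0.0593 to 0.0949), and that of Osbpl9 in LXR DKO when LXR DKO 2, LXR DKO 3 or WT 1 was dropped (0.054 to 0.0838) and with the replicate block (0.0567).

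Of all genes tested, 11.9% passed in transgenic against WT, 10.6% in LXR DKO against WT and 0.116% in transgenic against LXR DKO libraries. The lists that follow are short, so 1 gene passing is not read as a result about its list. In the bile acid route, 1 of 6 tested genes rose in each comparison with WT. That gene was Scp2, whose products include a peroxisomal thiolase of the bile acid side chain and a sterol carrier. It averaged 340.5 ± 19.7 RPKM in transgenic, 359 ± 6.60 RPKM in LXR DKO and 260.0 ± 27.3 RPKM in WT libraries. Against WT it rose by 0.47 ± 0.10 in LXR DKO (limma adjusted p = 0.0201) and by 0.39 ± 0.10 in transgenic libraries (limma adjusted p = 0.0371). Of 6 P450 electron donor genes 0 passed in any comparison (limma). Of 4 tested sulfation genes Papss1, which makes the sulfate donor that Sult2b1 uses, rose in transgenic against WT libraries by 0.44 ± 0.10 (adjusted p = 0.0258), with 38.2 ± 4.40 RPKM in transgenic, 31.6 ± 1.5 RPKM in LXR DKO and 27.9 ± 1.95 RPKM in WT libraries. Of 7 other sterol enzymes Dhcr7, the last step of one cholesterol synthesis branch, averaged 28.8 ± 2.38 RPKM in transgenic, 36.8 ± 1.44 RPKM in LXR DKO and 24.2 ± 4.05 RPKM in WT libraries, and rose in LXR DKO against WT libraries by 0.60 ± 0.12 (limma adjusted p = 0.018). Of 9 sterol supply genes Star, the mitochondrial cholesterol importer, averaged 69.7 ± 14.6 RPKM in transgenic, 67.0 ± 15.2 RPKM in LXR DKO and 118 ± 13.9 RPKM in WT libraries. It fell in both against WT (LXR DKO -0.83 ± 0.20, limma adjusted p = 0.0333, and transgenic -0.77 ± 0.20, limma adjusted p = 0.0411). The transgenic calls of Scp2, Star and Osbpl9 against WT were not followed over the alternative runs, so what follows for these genes concerns LXR DKO against WT. With single libraries left out, Scp2 was lost without LXR DKO 2 (limma adjusted p = 0.0573) or LXR DKO 3 (0.0758), and Dhcr7 also without LXR DKO 2 (0.0515) or LXR DKO 3 (0.0741). Papss1 was lost without WT 1, WT 2, transgenic 1 or transgenic 3 (0.0703 to 0.0815), and Star in LXR DKO without WT 1, WT 2, transgenic 1 or any 1 LXR DKO library (0.054 to 0.0949). Fitting only the compared genotypes lost Osbpl7, Osbpl9, Scp2, Papss1, Dhcr7 and Star (limma adjusted p 0.0526 to 0.0686). Testing with no filter lost Osbpl7, Scp2, Papss1 and Star (0.0504 to 0.0883), leaving out WT 1 and LXR DKO 1 together lost Osbpl7, Osbpl9, Scp2, Papss1 and Star (0.065 to 0.0937), and quantile normalization lost Star (0.0587).

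**Figure D5:**
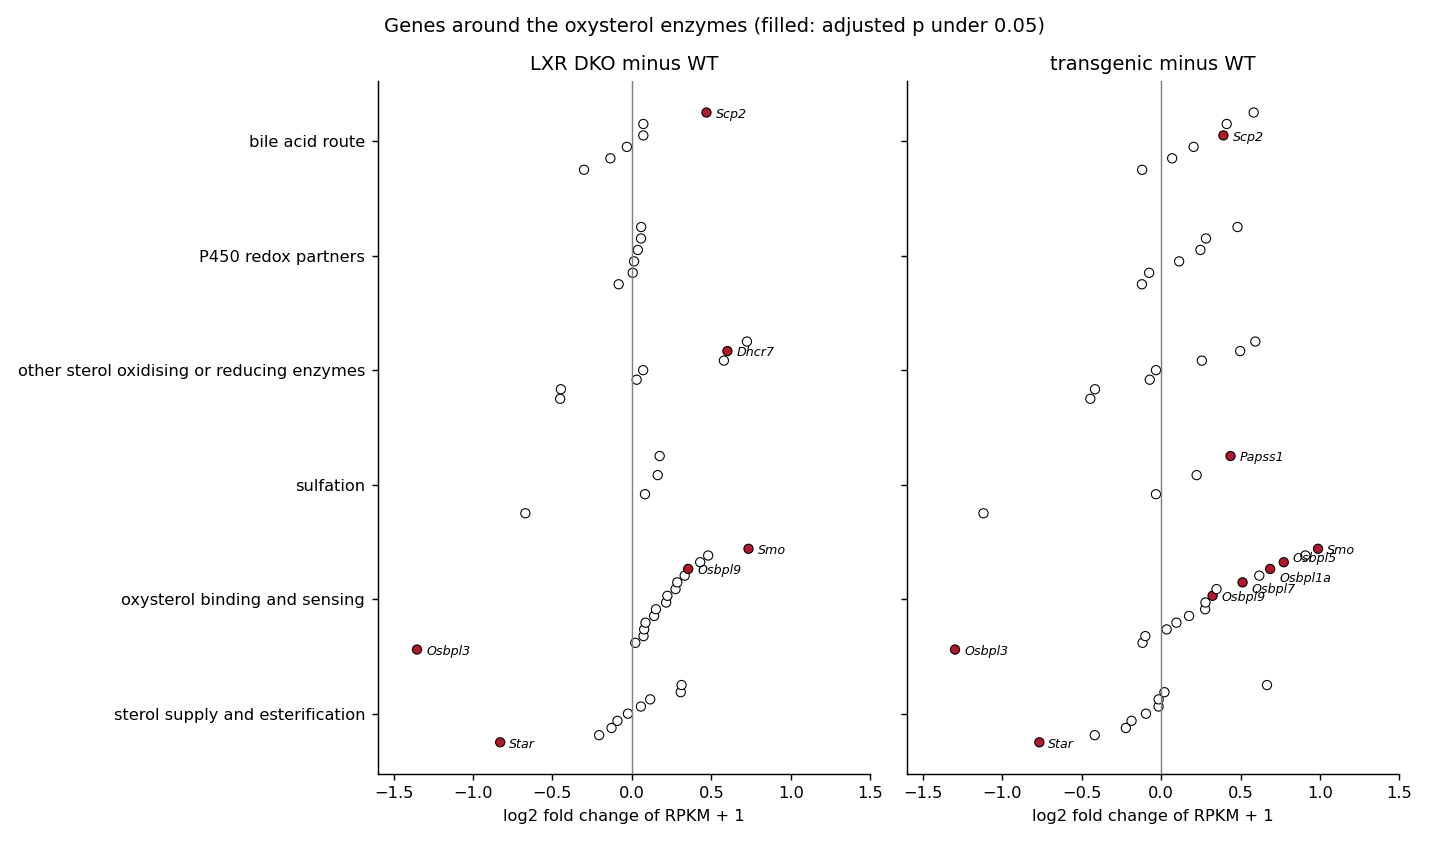
Log2 fold change of RPKM + 1 (x axis) of the 48 tested pathway genes, by list (rows), in LXR DKO minus WT and transgenic minus WT, with filled and named points for an adjusted p under 0.05. Most points lie near 0, Osbpl3 lies farthest to the left in both panels, and Smo farthest to the right.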

How the data were processed

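RNA of 9 libraries was measured by RNA sequencing. The authors deposited 1 matrix of RPKM values, and the submitters' processing notes list the mm10 build, DESeq2 1.2.8, HTSeq 0.5.4p5, HISAT2 2.1.0 and cutadapt with no roles. For the annotation, the strand setting and multi-mapped reads, the method was not given in the sources used here. Transgenic columns carry a name 1 letter off the description and were matched by TG and the replicate number. 0 columns of values were left unused.

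Reads per gene were worked back from the RPKM steps with GENCODE M21 exon lengths, and 98.1% of 37847 genes gave whole reads in all 9 libraries (tolerance 0.05 reads). Ch25h gave whole reads only with a length of 1350 bases instead of 1387. No count model was run on these numbers, which are given to show depth and cover counting error only. No 2 libraries of a group agreed within sampling noise (lowest chi-square per degree of freedom 16.7).

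Values were tested as log2(RPKM + 1) in limma 3.58.1 (R 4.3.3), with a mean-variance trend, genotype as the only term and all 9 libraries in 1 fit, over the 16422 genes that reached 1 RPKM in 3 or more libraries. The Benjamini-Hochberg adjustment covered every gene in the fit, and the threshold was 0.05. A fold change on this scale understates the change of low genes. Genes below the filter were compared by exact two-sided permutation tests and by the looser fit with a pseudocount of 0.1, which was added after the data were seen. The procedure was tested on simulated data, which did not hold the differences in cell content seen among these libraries.

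All 7 genes are given in every library. Of the pathway lists, genes past the threshold are named, at most 6 per comparison in order of adjusted p, and likeness is the Pearson correlation of log2(RPKM + 1) over 9 libraries. The members, the lists and the marker genes were chosen with earlier results of these data known. Positions are from GENCODE M21 on mm10, and promoters from RefSeq.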

Additional observations from a re-analysis of the deposited data

How the results depend on the processing

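Read numbers were low for some oxysterol genes: Sult2b1 rested on 3 to 33 reads per library and Cyp7b1 on 1 to 44. No value of an oxysterol gene passed the threshold in the deposited library set. Without WT 3, 1 of 2 tested oxysterol genes passed in transgenic against WT libraries (Gpr183), where 3555 of all 16422 genes tested passed. That count of oxysterol genes ranged from 0 to 1 over the planned omissions of single libraries. With the looser filter and a pseudocount of 0.1, leaving out WT 3 gave 2 of 6 genes (Gpr183 and Cyp7b1) in transgenic against WT libraries. There 3878 of all 25027 genes passed. In LXR DKO against WT libraries it gave 1 of 6 (Cyp7b1), where 2218 of 25027 passed. The counts of oxysterol genes ranged from 0 to 2 and from 0 to 1 over the 9 omissions. The cause was not tested.

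Counts of all genes past the threshold moved more. For transgenic against LXR DKO (19 genes) they were 31 with quantile normalization, 93 with only these genotypes fitted, 8 with the replicate block and 6 to 150 with single libraries left out. For transgenic against WT (1949) they were 1096 without a filter, 1248 without WT 1 and LXR DKO 1, and 650 to 3555 with single libraries left out. For LXR DKO against WT (1739) they were 1032 without a filter, 807 with only these genotypes fitted, 1145 without WT 1 and LXR DKO 1, and 609 to 2140 with single libraries left out. The labels do not say whether the replicate numbers pair the samples, and the values did not settle it. Of the same-numbered pairs, 3 of 9 had correlated deviations over 0.1, and 3 of 9 libraries correlated best with their own number. The highest correlation of any pair was 0.67, between WT 1 and LXR DKO 1, which also had the highest oocyte marker sums. A shared replicate and shared cell content cannot be told apart here. The block gave 1178 genes for LXR DKO against WT and 1513 for transgenic against WT, and no oxysterol gene passed under it.

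Signs that turned belonged to values not past the threshold. Ch25h in transgenic against LXR DKO was -0.058 with quantile normalization, -0.045 without LXR DKO 1 (with or without WT 1) and -0.066 without LXR DKO 3 (single omissions ranged from -0.066 to 0.25), and -0.026 and -0.076 for these omissions with the looser filter and a pseudocount of 0.1. Ch25h in transgenic against WT was 0.00092 without WT 1 (with or without LXR DKO 1) and 0.0095 there with the looser filter, and single omissions ranged from -0.21 to 0.00092. Ch25h in LXR DKO against WT was 0.046 without WT 1 and LXR DKO 1. Gpr183 in LXR DKO against WT was 0.037 without WT 2 (range -0.44 to 0.037), and 0.060 there with the looser filter and a pseudocount of 0.1. Cyp46a1, below the filter, also turned on the log2(RPKM + 1) scale. In LXR DKO against WT it went from -0.096 to 0.063 without WT 1 and 0.067 without WT 1 and LXR DKO 1. In transgenic against WT it went from -0.11 to 0.048 without WT 1. In transgenic against LXR DKO it went from -0.015 to 0.0020 without LXR DKO 2, 0.0088 without transgenic 1 and 0.035 without transgenic 2.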
